A study of Mus musculus with 8 samples.

Results

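The cathepsin proteases described here are 10 genes, Ctsa, Ctsb, Ctsc, Ctsd, Ctsh, Ctsk, Ctsl, Ctss, Ctsz and Lgmn, chosen by name and mapped by their GENCODE M21 symbols to the Ensembl identifiers of a gene count file with 50143 identifiers. All 10 were found and all 10 had counts high enough to be tested, among 14887 tested genes. Tumours of obese mice held about 8 times as much Ctsl RNA as tumours of lean mice, with smaller rises of Lgmn, Ctsb and Ctsz. Ctsk and Ctsh fell, and Ctss, Ctsc, Ctsa and Ctsd did not pass the test.

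Cathepsins are proteases made as inactive precursors that are sorted to lysosomes, where low pH and cleavage activate them, and cells such as macrophages also secrete them. Most are cysteine proteases of the papain family (Ctsb, Ctsc, Ctsh, Ctsk, Ctsl, Ctss and Ctsz), while Ctsd encodes an aspartic protease, Ctsa a serine carboxypeptidase and Lgmn legumain, a cysteine protease that cuts after asparagine. In breast tumours they are known from both cancer cells and infiltrating macrophages, and they can degrade matrix proteins, process other proteases and cleave antigens and the invariant chain for presentation on class II molecules.

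RNA was sequenced from 8 tumours of Py230, a mouse breast adenocarcinoma cell line, grown in mammary gland 4 of female C57BL/6 mice that were all ovariectomized at an age of 6 weeks. The obese group (4 tumours) came from mice on a high-fat diet (60% of calories as fat, 5.1 kcal/g), which gained 35% in body weight on average, and the lean group (4 tumours) from mice on a regular diet (10% of calories as fat, 3.6 kcal/g). Diets began 2 weeks after surgery and 6 weeks before the tumour cells were injected, and tumours were taken on day 56. All tumours come from 1 cell line in hosts with an intact immune system, and the labels do not say that each came from a mouse of its own, so p-values measure the spread between these tumours.

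Total counts ran from 25.7 to 66.7 M per library, and the lowest count of any cathepsin gene in any tumour was 402. Values are normalised CPM, that is, counts per 1 M counts after scaling by TMM factors, and log2 changes are obese minus lean ± standard error (SE) from edgeR's quasi-likelihood test, with p-values adjusted over the whole table and called under 0.05. The groups differed widely beyond these genes. Summed CPM of 12 epithelial markers ran from 66.4 to 884 in obese tumours, against 2365 to 3266 in lean tumours, and the highest obese value was that of obese replicate 3. In bulk tumours, fewer cells of a type and less RNA per cell cannot be told apart.

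Of the 10 cathepsin genes 6 passed the test, 4 of them higher and 2 lower in obese tumours. Over all tested genes 59.2% passed, 30.9% higher and 28.4% lower, so the cathepsin genes were called about as often as all tested genes. The 4 obese tumours lay above all 4 lean tumours for Ctsl, Ctsb, Lgmn and Ctsz and below all of them for Ctsk. The first pattern held for 28.9% of all tested genes and the second for 28.1%, or 57.0% in all. The median log2 change of the 10 genes was 0.27, against −0.04 over all tested genes. Higher genes made up 52.14% of all calls. Scaling by the upper quartile gave 41.25%, scaling by total count alone 42.34% and offsets for GC content and exon length 65.54%. These settings moved the median change of all genes by −0.21, −0.19 and 0.36 (log2), and leaving out the filter on low counts moved it by −0.11.

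**Figure D1:**
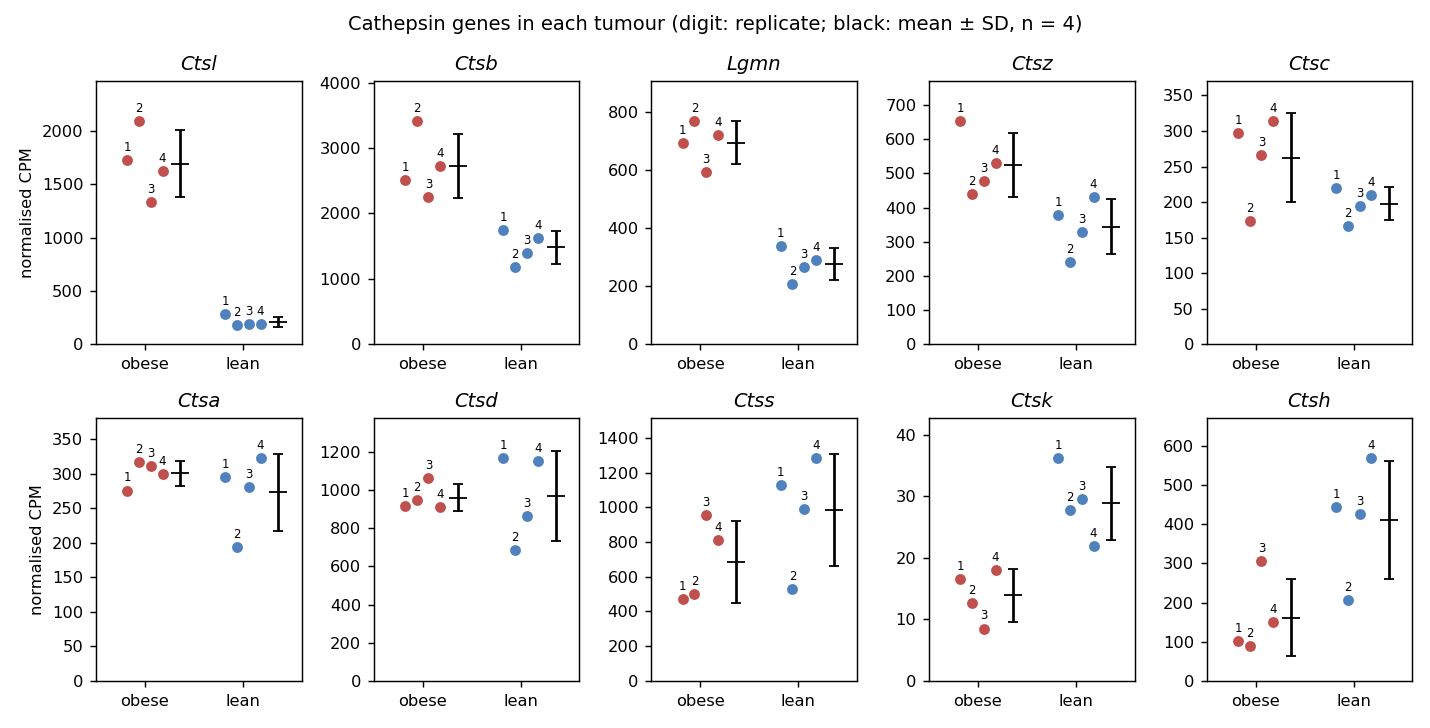
Normalised CPM of the 10 cathepsin genes in each tumour, obese left of lean, with the replicate number beside each point and the mean ± SD (n = 4) in black. The groups do not overlap for Ctsl, Ctsb, Lgmn, Ctsz and Ctsk, while lean replicate 2 is the lowest lean tumour for every gene except Ctsk.

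Ctsl and Ctsb, the broad endopeptidases of the family, both rose, Ctsl by much more. Ctsl (ENSMUSG00000021477, chromosome 13, 64359337 to 64370890, mm10) encodes cathepsin L, which degrades proteins in lysosomes and, when secreted, collagen and elastin. It stood at 1725, 2093, 1338 and 1622 CPM in obese replicates 1 to 4, against 282, 184, 188 and 191 CPM in lean replicates 1 to 4. Every obese tumour held more than 4 times the CPM of every lean tumour, and lean replicate 1 stood above the other lean tumours. Ctsl averaged 1695 ± 312 CPM in obese and 211 ± 47.3 CPM in lean tumours (SD, n = 4 each), a log2 change of 3.004 ± 0.21 or 8.02-fold (edgeR adjusted p = 0.000159). Counted from the largest rise, its log2 change ranked 449 among the 14887 tested genes.

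Ctsb (ENSMUSG00000021939, chromosome 14, 63122462 to 63145923) encodes cathepsin B, which acts both as an endopeptidase and by removing dipeptides from the carboxyl end. It stood at 2504, 3411, 2256 and 2731 CPM in obese replicates 1 to 4, against 1746, 1177, 1390 and 1619 CPM in lean replicates 1 to 4. Obese replicate 2 was the highest and the lowest obese tumour was above the highest lean one. Its log2 change was 0.88 ± 0.18, or 1.84-fold (edgeR adjusted p = 0.00508). Within each tumour the Ctsl to Ctsb ratio moved too. The log2 ratio of their CPM was −0.69 ± 0.10 in obese and −2.82 ± 0.21 in lean tumours (SD, n = 4 each), a difference of 2.13 (two-sided exact permutation test, p = 0.0286, the smallest that 70 assignments allow, and 0.0358 adjusted over 5 ratios).

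Lgmn (ENSMUSG00000021190, chromosome 12, 102394084 to 102439813) encodes legumain, which in mouse kidney and other tissues converts cathepsins B, H and L from their single-chain to their 2-chain forms. It stood at 691, 767, 592 and 721 CPM in obese replicates 1 to 4, against 339, 207, 265 and 289 CPM in lean replicates 1 to 4. The obese values varied little among themselves, by 1.30-fold from lowest to highest, and all lay above the lean values. Lgmn changed by 1.33 ± 0.17 on the log2 scale, or 2.52-fold (edgeR adjusted p = 0.00071). The calls of Ctsl, Ctsb and Lgmn held in all 18 alternative settings.

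Ctsz, Ctsc and Ctsh encode cysteine cathepsins that trim proteins from their ends, and they differed in direction. Ctsz (ENSMUSG00000016256, chromosome 2, 174427493 to 174439039) encodes a carboxypeptidase also called cathepsin X, known from macrophages and other immune cells. It stood at 653, 440, 478 and 531 CPM in obese replicates 1 to 4, against 377, 239, 330 and 432 CPM in lean replicates 1 to 4. The gap between the groups was small, with the lowest obese tumour just above the highest lean one. Ctsz rose by 0.61 ± 0.21 on the log2 scale (edgeR adjusted p = 0.0334). The call ended without obese replicate 1 (0.0785) or 4 (0.0649), without lean replicate 1 (0.0544) or 3 (0.0829), when scaled by the upper quartile (0.135) or by total count alone (0.0939) and with a filter of 1 CPM in 4 tumours (0.0638), within a range of 0.000909 to 0.135. With offsets for GC content and exon length the log2 change was 1.57, or 1.25 relative to the median of all genes.

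Ctsc (ENSMUSG00000030560, chromosome 7, 88278085 to 88310888) encodes dipeptidyl peptidase I, which activates serine proteases of granules in neutrophils, mast cells and cytotoxic lymphocytes. It stood at 297, 173, 266 and 314 CPM in obese replicates 1 to 4, against 219, 167, 195 and 210 CPM in lean replicates 1 to 4. Of the obese tumours 3 were above all lean tumours and obese replicate 2 was within the lean range. The log2 change was 0.41 ± 0.19 and did not pass (edgeR adjusted p = 0.0996). It passed without obese replicate 2 (0.57, edgeR adjusted p = 0.0136) and under limma-voom weighted by library quality (0.50, limma adjusted p = 0.00888), within a range of 0.00888 to 0.414. With offsets for GC content and exon length the log2 change was 0.38. Relative to the median of all genes that was 0.060, against 0.446 as reported.

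Ctsh (ENSMUSG00000032359, chromosome 9, 90054152 to 90076089) encodes an aminopeptidase known for processing surfactant proteins in the lung. It stood at 103, 89.1, 305 and 149 CPM in obese replicates 1 to 4, against 444, 207, 426 and 569 CPM in lean replicates 1 to 4. Obese replicate 3 was within the lean range, and the other 3 obese tumours were below all lean tumours. For Ctsh the log2 change was −1.35 ± 0.45 (edgeR adjusted p = 0.0328). The call ended without obese replicate 1 (0.0796), 2 (0.0761) or 4 (0.0783) and without lean replicate 1 (0.0553), 3 (0.056) or 4 (0.0692), within a range of 0.000165 to 0.0796. Without obese replicate 3 the log2 change was −1.84.

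Ctss and Ctsk lie on the same strand of chromosome 3, 17423 bases apart, and encode cysteine proteases of macrophages and dendritic cells (cathepsin S) and of osteoclasts and some fibroblasts (cathepsin K). Cathepsin S completes the breakdown of the invariant chain in class II presentation and stays active at neutral pH, and cathepsin K cuts triple-helical collagen. Ctss (ENSMUSG00000038642, 95526786 to 95556403) stood at 472, 501, 954 and 811 CPM in obese replicates 1 to 4, against 1129, 531, 991 and 1284 CPM in lean replicates 1 to 4. Obese replicates 1 and 2 and lean replicate 2 formed the low end, and the groups overlapped. The log2 change of −0.52 ± 0.33 did not pass (edgeR adjusted p = 0.191). Without lean replicate 2 it was −0.73 and still missed the threshold (edgeR adjusted p = 0.0518), and under limma-voom weighted by library quality it was −0.58 and passed (limma adjusted p = 0.0306), within a range of 0.0306 to 0.398.

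Ctsk (ENSMUSG00000028111, 95499256 to 95509362) was the least abundant of the 10 genes per kb of exon. It stood at 16.6, 12.6, 8.51 and 18.0 CPM in obese replicates 1 to 4, against 36.2, 27.7, 29.5 and 21.9 CPM in lean replicates 1 to 4. All obese tumours were below all lean tumours, with obese replicate 3 the lowest. For Ctsk the log2 change was −1.05 ± 0.27 (edgeR adjusted p = 0.0115). The call ended with offsets for GC content and exon length, which gave −0.50 (edgeR adjusted p = 0.216), or −0.82 relative to the median of all genes, against −1.01 as reported, within a range of 0.00107 to 0.216. The log2 ratio of Ctsk to Ctss was −5.61 ± 0.85 in obese and −5.04 ± 0.66 in lean tumours (SD, n = 4 each), and the difference of −0.57 did not pass (two-sided exact permutation test, p = 0.371, adjusted p = 0.371).

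The 250 bases before the starts of Ctsk, Ctss, Ctsc and Ctsz are shown because these are the genes whose single RefSeq start lies at or before the GENCODE start, so that the window holds no exon of the gene (RefSeq sequences, GRCm38.p6, the assembly of mm10). They were read 5′ to 3′ on the strand of the gene, at chr3:95498960-95499209 (plus), chr3:95526536-95526785 (plus), chr7:88277835-88278084 (plus) and chr2:174439040-174439289 (minus). Capitals mark GAGGAA or its reverse complement, the core of binding sites of PU.1, a transcription factor of macrophages.
Ctsk: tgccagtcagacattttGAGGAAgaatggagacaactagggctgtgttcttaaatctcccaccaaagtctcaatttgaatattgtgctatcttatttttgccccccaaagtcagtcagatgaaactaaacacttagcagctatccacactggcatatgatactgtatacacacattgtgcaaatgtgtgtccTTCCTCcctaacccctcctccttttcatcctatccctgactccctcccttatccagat
Ctss: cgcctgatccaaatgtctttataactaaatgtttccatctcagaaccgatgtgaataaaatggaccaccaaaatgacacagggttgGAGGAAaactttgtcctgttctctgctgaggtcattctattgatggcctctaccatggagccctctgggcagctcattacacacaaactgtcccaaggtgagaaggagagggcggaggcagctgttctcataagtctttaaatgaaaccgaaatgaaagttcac
Ctsc: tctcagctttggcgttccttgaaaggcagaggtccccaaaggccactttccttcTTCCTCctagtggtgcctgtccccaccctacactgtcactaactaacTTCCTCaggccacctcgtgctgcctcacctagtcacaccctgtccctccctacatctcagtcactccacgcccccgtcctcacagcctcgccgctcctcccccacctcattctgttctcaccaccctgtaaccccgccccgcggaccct
Ctsz: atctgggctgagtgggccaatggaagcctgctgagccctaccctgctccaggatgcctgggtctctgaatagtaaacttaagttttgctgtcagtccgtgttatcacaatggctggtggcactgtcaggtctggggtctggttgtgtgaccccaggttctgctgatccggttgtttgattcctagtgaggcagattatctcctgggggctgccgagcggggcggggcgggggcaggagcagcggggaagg
Ctsk held this core 233 and 58 bases before its RefSeq start, which lies 46 bases before the GENCODE start, Ctss 164 bases before, Ctsc 196 and 149 bases before, and Ctsz nowhere in the window. The core occurs in 23.3% of the 32851 windows of the same length in the table. RefSeq starts were at hand for 8 of the 10 genes (all but Ctsb and Ctsh), 10 starts in all. Of these 10 windows 3 held the PU.1 core, and no window of Ctsl, Lgmn, Ctsa or Ctsd did. The E-box CACGTG, the centre of the CLEAR element bound by TFEB and related factors, was found in 6.02% of all windows. It lay 245 and 98 bases before the Ctsd start, 236 bases before the Ctsl start and in the window of 1 of 2 starts each of Lgmn (49 bases before) and Ctsa (12 bases before). The Ctsl, Ctsd, Lgmn and Ctsa windows are not shown, since a start of each lies inside the GENCODE gene, by 370 bases for Ctsl and 211 for Ctsd. The starts of Lgmn and Ctsa with an E-box lie 721 and 900 bases inside. These E-boxes, that of Ctsl and the nearer one of Ctsd thus lie within the GENCODE gene, not before it. The AP-1 sequence TGANTCA was in none of the 10 windows, against 6.75% of all windows. All motifs were searched on both strands, none overlapped another, and a match is not a measured site.

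Ctsd and Ctsa encode the non-cysteine members, and neither passed the test. Ctsd (ENSMUSG00000007891, chromosome 7, 142375911 to 142388038) encodes cathepsin D, the main aspartic protease of lysosomes and a protein long studied in breast cancer. It stood at 918, 949, 1063 and 911 CPM in obese replicates 1 to 4, against 1169, 684, 864 and 1154 CPM in lean replicates 1 to 4. The obese values lay within the lean range. The log2 change was −0.01 ± 0.18 (edgeR adjusted p = 0.962), and its sign differed between settings. With offsets for GC content and exon length it was 0.66 and passed (edgeR adjusted p = 0.00945), or 0.34 relative to the median of all genes, within a range of 0.00945 to 0.989.

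Ctsa (ENSMUSG00000017760, chromosome 2, 164832873 to 164841032) encodes protective protein, a carboxypeptidase that stabilises neuraminidase 1 and beta-galactosidase in a lysosomal complex. It stood at 276, 317, 311 and 300.4 CPM in obese replicates 1 to 4, against 295, 194, 282 and 323 CPM in lean replicates 1 to 4. The groups overlapped and only lean replicate 2 stood lower. The log2 change was 0.14 ± 0.16 (edgeR adjusted p = 0.472), −0.04 when scaled by total count alone and −0.07 by the upper quartile, scalings that lower all genes and leave it at 0.182 and 0.175 relative to their median, against 0.177 as reported. With offsets for GC content and exon length it was 0.66, or 0.34 relative to that median, and passed (edgeR adjusted p = 0.00995), within a range of 0.00995 to 0.961. Of 3 genes listed for this complex 2 rose and 1 fell. Neu1, neuraminidase 1, fell to 40.0 ± 10.5 CPM in obese tumours, against 79.9 ± 22.2 CPM in lean tumours (log2 change −0.996 ± 0.26, edgeR adjusted p = 0.0118), a call lost with offsets for GC content and exon length. The groups overlapped for Neu1. Glb1, beta-galactosidase, stood at 95.4 ± 17.8 CPM in obese and 35.1 ± 1.38 CPM in lean tumours and rose (1.44 ± 0.14, edgeR adjusted p = 0.000314). Galns stood at 48.0 ± 7.02 CPM in obese and 26.2 ± 3.18 CPM in lean tumours and rose too (0.87 ± 0.15, edgeR adjusted p = 0.00243). The log2 ratio of Ctsa to Neu1 was 2.94 ± 0.34 in obese and 1.797 ± 0.13 in lean tumours, a difference of 1.14 (two-sided exact permutation test, p = 0.0286, adjusted p = 0.0358).

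**Figure D2:**
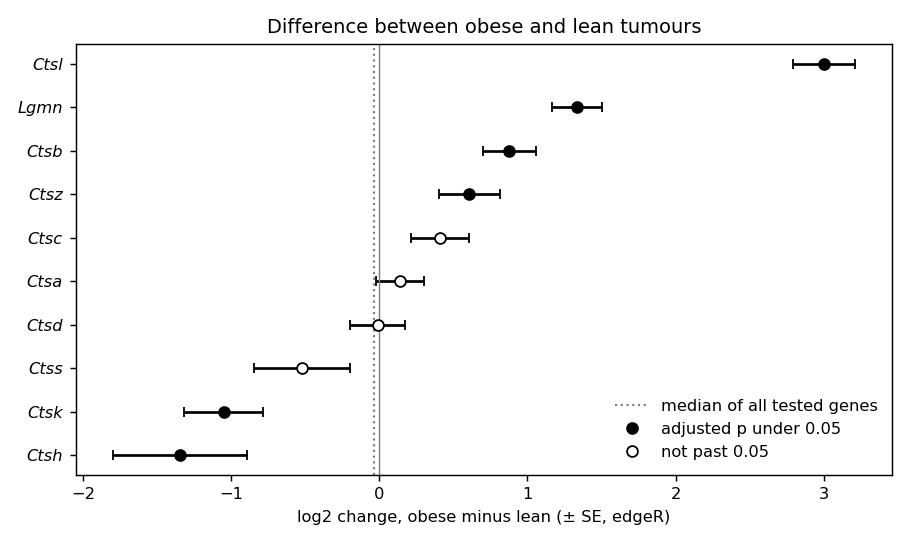
Log2 change of each cathepsin gene, obese minus lean (horizontal axis, ± SE from edgeR), with filled points for an adjusted p under 0.05 and a dotted line at the median of all tested genes (−0.04). Ctsl stands apart at 3.004, and Ctsk and Ctsh lie at −1.05 and −1.35.

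Compared per kb of exon, so that genes of different length can be set side by side, Ctss had the highest mean of the 10 genes in both groups and Ctsk the lowest. In obese tumours the mean level in CPM per kb was 504.1 ± 174 for Ctss, 450.4 ± 82.0 for Ctsb, 408 ± 29.9 for Ctsd, 365 ± 64.6 for Ctsz, 298 ± 32.0 for Lgmn and 261 ± 48.1 for Ctsl (SD, n = 4). The lead of Ctss rested on obese replicates 3 and 4 (702 and 597 CPM per kb). In obese replicates 1 and 2 it stood at 348 and 369, below Ctsb (414 and 564) and Ctsd (391 and 404). Each of the 6 means differed from the next by less than the sum of their SDs. Ctsa (63.9 ± 3.87), Ctsc (45.2 ± 10.8), Ctsh (35.9 ± 22.0) and Ctsk (9.21 ± 2.83) followed, and of these only Ctsc and Ctsh differed by less than their summed SDs. In lean tumours Ctss stood at 724 ± 239, Ctsd at 412 ± 100.1, Ctsb at 245 ± 41.6, Ctsz at 239 ± 56.7 and Lgmn at 118 ± 23.7 CPM per kb. Ctsh (91.4 ± 33.4), Ctsa (58.0 ± 11.8), Ctsc (34.1 ± 3.96), Ctsl (32.6 ± 7.29) and Ctsk (19.1 ± 3.90) were lower. Steps larger than the summed SDs lay between Ctsd and Ctsb, Ctsz and Lgmn, Ctsa and Ctsc, and Ctsl and Ctsk. Ctsl was thus sixth in obese and ninth in lean tumours. Among all tested genes its level per kb was in the top 0.989% in obese and the top 11.4% in lean tumours, while Ctss was in the top 0.345% and 0.23%.

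The make-up of the cathepsin RNA shifted with these changes. Ctsl made up 10.7% of the summed level per kb of the 10 genes in obese tumours (range 8.23 to 13.3%), against 1.71% in lean tumours (1.23 to 2.19%). Lgmn made up 12.2% (10.2 to 13.6%) in obese and 6.10% (5.17 to 6.88%) in lean tumours. Ctss took 20.5% (15.04 to 28.0%) in obese and 36.0% (30.2 to 39.3%) in lean tumours, and Ctsh 1.46% (0.818 to 2.71%) in obese and 4.52% (3.55 to 5.26%) in lean tumours. The ranges of these 4 genes did not overlap between the groups, nor did those of Ctsd and Ctsk, both smaller in obese tumours. The share of Ctsd was smaller while its own level was alike in both groups, 408 and 412 CPM per kb, since shares also move with the other genes in the sum. The same limit holds for Ctss, which did not pass the test. Its own level overlapped, at 348 to 702 CPM per kb in obese and 391 to 946 CPM per kb in lean tumours. Ctsb and Ctsz overlapped, Ctsz with 12.6 to 19.6% in obese and 11.4 to 12.8% in lean tumours. The summed level per kb itself ran from 2312 to 2527 in obese and from 1295 to 2404 in lean tumours, with lean replicate 2 the lowest. Exon lengths depend on the transcripts counted, and with the length of the longest principal transcript, chosen after the data were seen, Ctsb (575 CPM per kb) stood before Ctss (505) in obese tumours and Ctsh (254) moved before Ctsz (239) in lean tumours. The share of Ctsh was then 3.51% in obese and 10.6% in lean tumours.

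**Figure D3:**
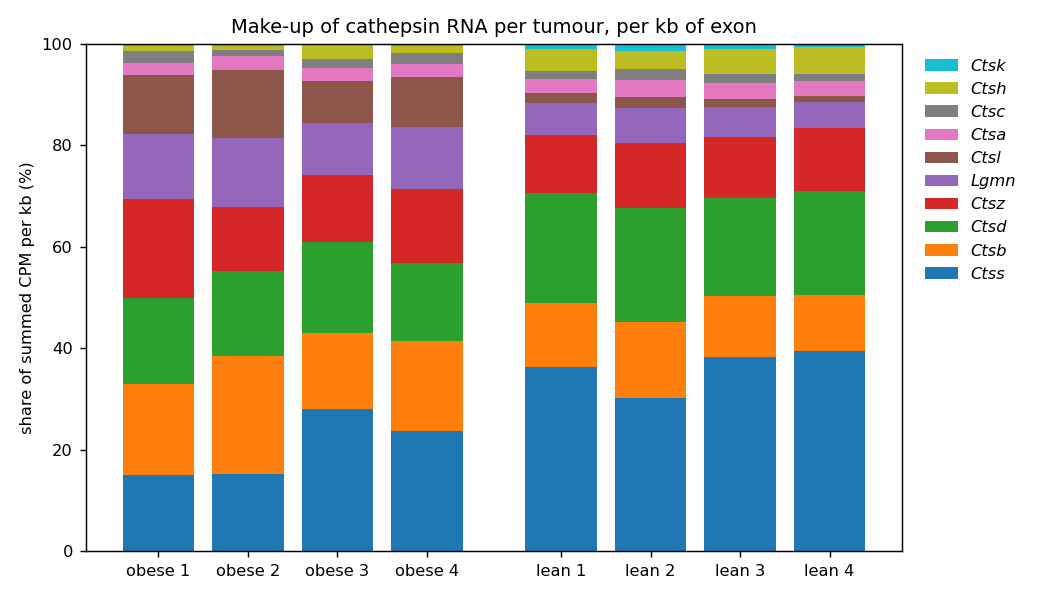
Share of each gene (vertical axis, percent) in the CPM per kb of exon summed over the 10 cathepsin genes, with 1 bar per tumour, obese left of lean. The share of Ctsl is 8.23 to 13.3% in obese and 1.23 to 2.19% in lean tumours, and that of Ctss is smaller in every obese tumour than in every lean tumour. The level of Ctss itself overlaps between the groups, and shares also move with the other genes in the sum.

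Within the groups the genes did not vary as 1 block. Obese replicate 3 was the lowest obese tumour for Ctsl, Ctsb, Lgmn and Ctsk and the highest for Ctsh, Ctss and Ctsd. Lean replicate 2 was the lowest lean tumour for 9 of the 10 genes, and lean replicate 1 the highest for 6. The likeness of 2 genes was taken as the root mean square difference of their log2 CPM over the 8 tumours, each centred on its own mean. This measure includes the difference between obese and lean tumours, so genes with a like log2 change come out near each other. It does not show variation within the groups alone. Among the members Ctsa and Ctsd were the closest pair (0.13), followed by Ctsc and Ctsz (0.24) and Lgmn and Ctsb (0.25). The nearest member to Ctsl was Lgmn, at 0.84. Among all other named tested genes, those nearest to Ctss were Fgd2, an exchange factor of the small GTPase CDC42 (0.11), and Lyz2, the lysozyme of myeloid cells (0.12). Those nearest to Ctsh were Abi3 (0.12) and Slc26a10 (0.19), and to Ctsl Tiparp, a mono-ADP-ribosyltransferase (0.12), and Trim35 (0.13). Bcl11b (0.17) and Tmem252 (0.20) were nearest to Ctsk. Gabarapl1, an autophagy protein of the ATG8 family (0.078), and Eno1b (0.080) were nearest to Lgmn. Nearest to Ctsb were Vsig10 (0.059) and Gatd1 (0.073), and to Ctsa Tbc1d13 (0.066) and S1pr2 (0.070). Ubb (0.081) and Wdr73 (0.089) were nearest to Ctsd, and Slc39a13 (0.078) and Cuedc2 (0.081) to Ctsz. For Ctsc these were Mrps25 (0.12) and Dpy30 (0.12). The log2 changes of Tiparp and Trim35 were 3.10 and 3.19, and that of Gabarapl1 was 1.30.

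**Figure D4:**
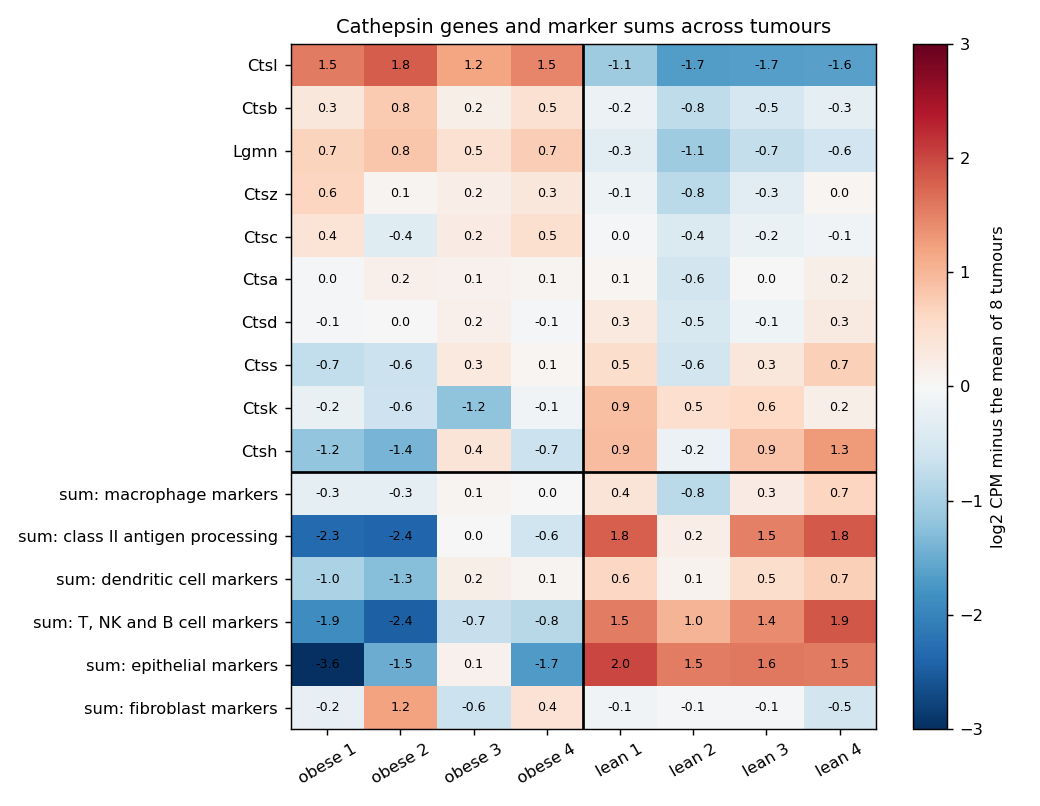
Log2 CPM of each cathepsin gene and log2 of the summed CPM of 6 marker lists in each tumour, minus the mean of the 8 tumours (colour and number, colour ending at 3 on either side), obese columns left of lean. Ctsl is high in every obese tumour, while Ctss, Ctsh and the class II sum are all higher in obese replicates 3 and 4 than in obese replicates 1 and 2.

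Markers of macrophages, cells rich in cathepsins, went both ways. Of 16 tested markers 6 rose and 1 fell, with a median log2 change of −0.25. Itgam, an integrin chain of myeloid cells, stood at 177 ± 30.3 CPM in obese and 22.3 ± 8.26 CPM in lean tumours and rose (2.99 ± 0.27, edgeR adjusted p = 0.000267). Fcgr1, a receptor for IgG (1.92 ± 0.32), and Adgre1, which encodes F4/80 (1.22 ± 0.21), rose as well. Csf1r, the receptor of the macrophage growth factor CSF1, was the 1 marker that fell (−0.54 ± 0.20, edgeR adjusted p = 0.0428), with groups that overlapped. Several others stood lower in obese tumours without passing, among them Cx3cr1, a chemokine receptor (−2.04 ± 0.93, edgeR adjusted p = 0.0896), C1qa, a complement gene (−0.75 ± 0.37, edgeR adjusted p = 0.107), and Lyz2 (−0.61 ± 0.30, edgeR adjusted p = 0.11). Summed CPM of the list ran from 2237 to 2910 in obese and from 1583 to 4322 in lean tumours and overlapped, with lean replicate 2 the lowest of all 8. The count of macrophage markers that fell was 5 without lean replicate 2, 2 without obese replicate 3 and 0 without each of the other tumours, and DESeq2 gave 6 and limma-voom weighted by library quality 7. Their part in the cathepsin values was not tested.

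Genes of class II antigen processing, the pathway of Ctss and Lgmn, fell in 9 of 10 cases and rose in 0, with a median of −2.22. Their summed CPM was 915, 892, 4559 and 3082 in obese replicates 1 to 4, against 16053, 5285, 13127 and 16579 CPM in lean replicates 1 to 4. Every obese tumour was below every lean tumour, and obese replicates 1 and 2 were the lowest. H2-Oa and H2-Ob, which regulate peptide loading, stood at 1.61 ± 1.15 and 2.37 ± 1.25 CPM in obese tumours, against 11.7 ± 2.60 and 11.6 ± 2.05 CPM in lean tumours. The 10th gene, Ifi30, a thiol reductase of lysosomes, did not pass (−0.18 ± 0.17, edgeR adjusted p = 0.376). Of 8 dendritic cell markers 4 fell and 0 rose (median −0.89), and their summed CPM ran from 50.1 to 137 in obese and from 131 to 200.5 in lean tumours. Of 10 T, NK and B cell markers 9 fell and 0 rose (median −2.28). Their part in the values of Ctss and Ctsh was not tested.

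Other cell types gave these values. Of 7 tested osteoclast markers, beside which Ctsk stands, 3 fell and 1 rose, with summed CPM of 121 to 188 in obese and 155 to 263 in lean tumours. Ocstamp, a fusion protein of osteoclasts, stood at 5.52 ± 3.03 CPM in obese and 22.3 ± 8.63 CPM in lean tumours. It fell (−2.01 ± 0.46), with groups that overlapped. Tnfrsf11a fell too (−0.83 ± 0.18). The 1 marker that rose was Nfatc1 (0.77 ± 0.21), with every obese tumour above every lean tumour. Without lean replicate 1, 3 osteoclast markers rose, and 2 did without obese replicate 3, with DESeq2, with limma-voom or with the offsets, and 3 under limma-voom weighted by library quality. Of 12 fibroblast markers 3 rose and 6 fell (median −1.10). Of 12 epithelial markers 7 fell and 0 rose (median −3.68), and without obese replicate 3 all 12 fell, as they did with 1 surrogate variable. Of 7 tested neutrophil and mast cell markers 3 rose and 1 fell, or 1 rose without obese replicate 4 or without lean replicate 3. Of 8 endothelial and adipocyte markers 1 fell and 0 rose, and that count was 2 without obese replicate 4 and 0 without obese replicate 1 or 2 or lean replicate 2, 3 or 4.

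Of the other cathepsins 4 fell while 0 rose, or 1 without a filter on low counts. Of 17 genes, 6 had enough counts to be tested, and the remaining 11, mostly placental paralogues, had 30 counts in all. Ctsf, a cysteine cathepsin of lysosomes, stood at 2.70 ± 1.94 CPM in obese and 18.3 ± 4.19 CPM in lean tumours and fell (−2.76 ± 0.50, edgeR adjusted p = 0.0031). Ctse, an aspartic protease, fell to 0.822 ± 0.303 CPM in obese tumours, against 2.83 ± 0.199 CPM in lean tumours. Ctsw, known from cytotoxic lymphocytes, stood at 6.28 ± 5.70 CPM in obese tumours, against 37.1 ± 16.7 CPM in lean tumours. It fell (−2.56 ± 0.70), with groups that overlapped. Tinagl1, a catalytically inactive relative, was the 4th to fall.

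Most tested cystatin, stefin and related genes did not rise as Ctsl did. Of 19 cystatin, stefin and related genes 8 were tested, of which 1 rose and 4 fell (median −0.39). The number that fell was 7 without obese replicate 3 or without a filter and 1 with offsets for GC content and exon length, and 2 rose with these offsets or without lean replicate 1. Cst3, cystatin C, the main secreted inhibitor, stood at 235, 206, 272 and 193 CPM in obese replicates 1 to 4, against 426, 365, 659 and 613 CPM in lean replicates 1 to 4, and fell (−1.19 ± 0.22, edgeR adjusted p = 0.00321). The groups did not overlap. The log2 ratio of Ctsl to Cst3 was 2.90 ± 0.44 in obese and −1.27 ± 0.58 in lean tumours, a difference of 4.17 (two-sided exact permutation test, p = 0.0286, adjusted p = 0.0358). Every obese tumour was above every lean tumour for Ctsl and below for Cst3, so this ratio could not overlap between the groups. Its p was thus bound to be the smallest possible and adds nothing to the calls of Ctsl and Cst3. Cstb, stefin B, the main inhibitor inside cells, did not pass (0.12 ± 0.23, edgeR adjusted p = 0.663). The log2 ratio of Ctsb to Cstb was 3.81 ± 0.53 in obese and 3.05 ± 0.10 in lean tumours, a difference of 0.77 (two-sided exact permutation test, p = 0.0286, adjusted p = 0.0358), and without any 1 lean tumour its adjusted p was 0.0714. Ctla2a, which resembles the propeptide of cathepsin L, fell (−0.75 ± 0.13), and Fetub, a fetuin of the cystatin superfamily, fell to 0.395 ± 0.357 CPM in obese tumours, against 5.73 ± 2.05 CPM in lean tumours. The 1 gene that rose, Serpinb6a (2.73 ± 0.22), is a serpin whose human counterpart is known as an inhibitor of the serine protease cathepsin G.

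Genes that carry cathepsins to lysosomes went both ways, 3 of 11 rising and 5 falling (median −0.55). M6pr, a mannose 6-phosphate receptor, stood at 497 ± 79.6 CPM in obese and 292 ± 20.9 CPM in lean tumours and rose (0.77 ± 0.14, edgeR adjusted p = 0.00328), as did Gnptab, which makes the tag (1.07 ± 0.17). Gga2, an adaptor that packs the receptors into vesicles, fell (−1.14 ± 0.16). Igf2r (−0.87 ± 0.30), Gnptg (−0.63 ± 0.23) and Nagpa (−0.55 ± 0.18) of the same list fell as well. The groups did not overlap for Igf2r but did for Gnptg and Nagpa. The count that fell was 2 without obese replicate 4, lean replicate 1 or lean replicate 4, and 3 without obese replicate 2 or lean replicate 3, and it was 1 with offsets for GC content and exon length, while limma-voom with weights for library quality gave 8. Of 12 regulators and membrane genes of lysosomes 4 rose and 3 fell (median 0.19), while 5 fell when scaled by the upper quartile or total count alone and 1 with the offsets. Tfeb, a transcription factor of lysosomal genes, stood at 6.81 ± 2.19 CPM in obese and 35.5 ± 13.7 CPM in lean tumours and fell (−2.38 ± 0.36, edgeR adjusted p = 0.00137). Its relatives Mitf and Tfe3, named after their values were seen, stood at 12.7 ± 6.21 and 62.2 ± 5.10 CPM in obese tumours, against 4.14 ± 0.289 and 69.2 ± 7.91 CPM in lean tumours. Mitf rose (1.61 ± 0.36, edgeR adjusted p = 0.00669), and Tfe3 did not pass (−0.15 ± 0.12, edgeR adjusted p = 0.294). Npc2, a cholesterol carrier in lysosomes, and the tetraspanin gene Cd63 rose (1.25 ± 0.21 and 1.15 ± 0.20).

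Of 9 tested serine proteases that cathepsin C activates, 3 rose and 1 fell (median 0.36). Prtn3, proteinase 3 of neutrophils, stood at 3.47 ± 1.88 CPM in obese and 0.658 ± 0.411 CPM in lean tumours and rose (2.39 ± 0.55). The mast cell protease gene Mcpt4 rose too (2.55 ± 0.77), with groups that overlapped, while Gzmk fell (−3.19 ± 0.97). The count that rose was 1 without obese replicate 2, obese replicate 4 or lean replicate 3. The count that fell was 2 without obese replicate 3 or lean replicate 2 and 0 without lean replicate 3, while limma-voom with weights for library quality gave 3.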

How the data were processed

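Gene counts of 8 tumours were used, 4 from obese and 4 from lean mice, grouped by the condition given in the labels. The replicate numbers only name tumours. The deposited file holds read counts per Ensembl gene, whole numbers with a different total in each tumour, and carries no normalisation. Per the submitters' processing notes, CASAVA 1.8, bcl2fastq 2.18.0.12, cutadapt 1.12, STAR 2.5.2b and HTSeq were used with build mm10. The strand setting and the annotation are not given in the sources used here. Genes on the opposite strand overlap Ctsa, Ctsb and Ctsz, so reads of these genes may not be separable. Ctsl overlaps Gm47123 on the opposite strand and Gm49230 on the same strand, for which no counts were at hand.

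Genes were kept by filterByExpr (minimum count 10, minimum total 15) and tested with edgeR 4.0.16 (TMM, quasi-likelihood F test, robust, two-sided, Benjamini-Hochberg over all 14887 genes). SE is the log2 change over the square root of F. Alternatives used limma 3.58.1, DESeq2 1.42.0 and sva 3.50.0 in R 4.3.3. The likeness and ratio measures used log2 CPM with a prior count of 0.5. The test was checked on simulated counts. It called 7 of 106 genes with a 2-fold change, 49 of 92 with a 4-fold change and 1 of 14533 without a change. Far fewer genes were changed there than were called in these tumours, so these shares do not carry over directly. A gene that did not pass is not thereby shown to be unchanged.

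Symbols, positions and exon lengths came from GENCODE M21 (GRCm38), and the union of exons was used as length. The members and lists were chosen with earlier results of these data known. All members are named, and from each other list up to 3 called genes with the smallest p were named by rule. Cst3 and Cstb are named for the ratios. Tinagl1, Ifi30, Mitf, Tfe3, Igf2r, Gnptg, Nagpa and the macrophage markers that were not higher were named after their values were seen. A count of 3 corresponds to 0.0494 to 0.124 CPM.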

Additional observations from a re-analysis of the deposited data

Results flagged for a closer look

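The 10 genes were looked at in each group of 4 tumours for a value set apart from the rest. Of 20 such groups 1 was set apart, where chance gives about 1 in 20. Ctsl in lean replicate 1 stood at 282 CPM, while the other lean tumours held 184 to 191 CPM. Without that tumour the log2 change of Ctsl was 3.18.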

How the results depend on the processing

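No paired analysis was possible because the labels give the tumours no shared replicate numbers. Of 180 values of the 10 genes over 18 settings, 152 kept their direction and their side of the threshold. With the same sign 14 lost the call and 4 gained it, and 10 changed sign. Among the values that changed sign, Ctsd with offsets for GC content and exon length also gained the call. Ctsl, Ctsb and Lgmn kept their calls in all 18, with log2 changes of 2.79 to 3.18, 0.66 to 1.16 and 1.117 to 1.95. The sign of Ctsd changed to 0.019 with limma-voom, 0.020 without a filter and 0.66 with offsets for GC content and exon length, and it ran from −0.15 to 0.10 (with 0.023, 0.0043, 0.026, 0.099 and 0.086 above 0) when a tumour was left out. That of Ctsa changed to −0.042 when scaled by total count alone and −0.074 by the upper quartile, which moved all genes alike. Relative to the median of all genes it was 0.182 and 0.175, against 0.177 as reported. The cause of the changes for Ctsd was not tested. The number of genes that rose among the 10 was 3 to 5 when a tumour was left out and 6 with the offsets, and the number that fell was 1 to 2 and 1. Over all genes 7143 to 9833 were called when a tumour was left out (8819 with all 8). Leaving out a tumour gave differences in log2 ratio of 2.04 to 2.20 for Ctsl to Ctsb, 3.99 to 4.39 for Ctsl to Cst3, 1.05 to 1.30 for Ctsa to Neu1, 0.56 to 0.98 for Ctsb to Cstb and −0.85 to −0.17 for Ctsk to Ctss. A prior count of 2 changed no call of a ratio. Of 540 counts of genes in the other lists 62 moved by over 1.5 times. Of 40 shares 15 moved by more than their SD with another transcript length.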
